A study of Mus musculus with 12 samples.

Results

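The genes described are 8 genes of zinc handling, chosen by name in the deposited gene table: the metallothioneins Mt1 and Mt2, the metal-responsive transcription factor Mtf1, the zinc transporters Slc30a1 and Slc30a4 of the SLC30 (ZnT) family, and the metal importers Slc39a6, Slc39a8 and Slc39a14 of the SLC39 (ZIP) family. They are 8 of 55573 genes in the table, and all 8 had reads in every library, with 82 to 13454 reads per gene and library. The RNA came from mouse embryonic fibroblasts (MEFs), connective tissue cells grown from embryos, of β-actin-TVA/p53−/− mice, which lack the tumour suppressor p53 and carry TVA, the receptor for avian RCAS viruses, under the β-actin promoter. Every group therefore shares the p53 loss, the receptor and an RCAS virus, which carried GFP in the control cells (called vector) or HOXB13, a homeobox transcription factor, in the others. Cells were plated on gelatin in DMEM with 5% serum and harvested confluent at day 1, or kept in OsteoMAX-XF, a commercial osteogenic medium, until day 21. Each of the 4 groups (vector or HOXB13, day 1 or day 21) had 3 libraries from triplicate wells. Nothing in the labels says that wells came from separate animals or cultures, so each p-value reflects the spread among these wells alone, and that spread may be technical.

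Zinc inside cells is kept low by a small set of proteins. Metallothioneins are short, cysteine-rich proteins that bind zinc and copper; MTF1, a zinc-finger factor that senses free zinc, binds metal response elements in DNA and switches on their genes and that of the exporter ZnT1. SLC30 proteins move zinc out of the cytosol, either out of the cell or into vesicles, and SLC39 proteins move it in; ZIP8 and ZIP14 also carry manganese, iron and cadmium. Metallothionein genes and Slc39a14 are also known to respond to inflammatory cytokines, and metallothionein genes to glucocorticoids. Zinc is needed by alkaline phosphatase and by zinc-finger factors of bone-forming cells.

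Mt1 and Mt2 lie side by side on the plus strand of chromosome 8 (GRCm38, GENCODE M21), Mt2 at 94172664 to 94173568 and Mt1 at 94179082 to 94180327. The sequences before their starts, and before that of Slc30a1, the exporter gene that MTF1 also controls, are shown because these are the members known as MTF1 targets. They are from the RefSeq promoter table (GRCm38.p6), from which windows of 300 bases, 250 before and 50 from the RefSeq start, were used for 6 of the 8 genes. Each is printed 5′ to 3′ on the gene's strand and stops before the first start annotated by RefSeq or GENCODE. Capitals mark the core of the metal response element, TGCACNC or TGCGCNC, on either strand.

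Mt2, chr8:94172368-94172617, plus strand: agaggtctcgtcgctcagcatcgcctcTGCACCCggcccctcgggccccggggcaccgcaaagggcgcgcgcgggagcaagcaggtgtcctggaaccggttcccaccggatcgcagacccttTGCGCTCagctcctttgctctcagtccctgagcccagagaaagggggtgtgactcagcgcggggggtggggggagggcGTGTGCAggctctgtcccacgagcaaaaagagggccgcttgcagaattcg
Mt1, chr8:94178839-94179081, plus strand: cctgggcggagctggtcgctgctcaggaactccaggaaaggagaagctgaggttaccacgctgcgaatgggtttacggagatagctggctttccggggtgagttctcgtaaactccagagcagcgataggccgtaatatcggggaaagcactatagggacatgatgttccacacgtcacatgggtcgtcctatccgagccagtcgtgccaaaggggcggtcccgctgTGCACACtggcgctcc
Slc30a1, chr1:191906531-191906766, plus strand: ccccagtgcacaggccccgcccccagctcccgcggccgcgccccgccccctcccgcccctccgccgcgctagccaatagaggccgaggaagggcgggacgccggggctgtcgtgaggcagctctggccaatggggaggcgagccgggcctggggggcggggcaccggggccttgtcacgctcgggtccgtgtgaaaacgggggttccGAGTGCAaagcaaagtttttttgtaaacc

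Over the whole windows of 300 bases, the core was matched 4 times at Mt2, 3 times at Mt1 and at Slc30a4, 2 times at Slc30a1 and 0 times at Mtf1. The printed stretches hold 3 of the matches at Mt2, 1 at Mt1 and 1 at Slc30a1. The others at these genes lie after the RefSeq start. Slc39a8, with 2 windows in the table, had 1 match in 1 of them. Of all 32851 windows in the table, 25.7% held at least 1 match and 1.97% held 3 or more. The antioxidant response element TGACNNNGC was matched once at Mt2, Slc30a1 and Slc39a8 (12.4% of all windows hold it), and the palindromic glucocorticoid response element in none of these windows (0.00913% of all windows hold it). The matches describe letters only, both strands were searched and no matches of the different motifs overlapped. The windows follow the RefSeq start. The principal GENCODE transcript of Mt2 starts 46 bases further on, inside the window. GENCODE also annotates transcripts that start 122 and 152 bases further on for Mt1 and 242 bases further on for Mt2, and the sequence directly before those starts was not searched in full.

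Levels are the deposited values, reads of a gene per 1000000 after TMM scaling by the authors (RPM). Gene reads per library ranged from 11109392 to 15154317. Hoxb13 matched the labels: its day 1 levels were 0.375 ± 0.197 RPM (vector) and 327 ± 3.28 (HOXB13), and its day 21 levels 0.343 ± 0.197 and 248 ± 8.59 (SD, n = 3). Xist was at 427 ± 28.8 and 158 ± 8.03 RPM in vector and at 0.332 ± 0.162 and 0.303 ± 0.164 in HOXB13 at the respective days, and Ddx3y of the Y chromosome was at 98.3 ± 1.32 and 106 ± 2.09 in HOXB13 against 0.171 ± 0.183 and 0.130 ± 0.0897 in vector. Trp53 had 32.1 to 53.4 RPM as group means, and a gene total does not check its deletion. The vector libraries thus carry Xist without Y transcripts and the HOXB13 libraries Y transcripts without Xist, as female and male cells do. HOXB13, sex and any other difference between the cultures cannot be told apart in any comparison of the viruses. Likewise day, medium and plate cannot be told apart. The TMM scaling raised the library size of HOXB13 at day 1 by a factor of 1.14 to 1.15, against 0.948 to 1.01 elsewhere, and mitochondrial genes held 1.08% to 2.84% of reads. All 10 fibroblast markers had reads in every group. They summed to 37674 to 38774.5 RPM (vector) and 21401 to 21663 (HOXB13) on day 1, and to 40530 to 44252 and 43910 to 46301 on day 21. Single markers were called in both directions between the viruses. Thy1 was lower in HOXB13 on both days (log2 fold changes of -2.37 ± 0.04 and -2.56 ± 0.04), and Lum was higher at day 1 (2.16 ± 0.10). Osteoblast markers (7, of which Alpl, Spp1 and Runx2 reached 1 RPM in 3 or more libraries) summed to 121 to 124 RPM (vector) and 118 to 129 (HOXB13) on day 1. Their day 21 sums were 2130 to 2278 and 1225 to 1324 RPM. Alpl was lower in HOXB13 on both days (log2 fold changes of -1.91 ± 0.10 and -4.02 ± 0.10). Spp1 was higher in HOXB13 at day 1 (0.28 ± 0.04) and lower at day 21 (-0.68 ± 0.04). Runx2 was lower at day 1 (-0.21 ± 0.06) and higher at day 21 (0.27 ± 0.06). With time Alpl and Spp1 rose in both cell populations, while Runx2 fell in vector (-1.11 ± 0.06) and HOXB13 (-0.64 ± 0.06). Mesothelial markers (8 of 8 detected) had a summed day 1 level of 1224 to 1270 RPM (vector) and 206 to 219.7 (HOXB13), and a day 21 level of 3629 to 3727 and 78.4 to 93.2. Epithelial markers (5, with Epcam at 0.248 RPM or less on average) summed to 46.8 to 50.8 and 168 to 175 RPM in vector on the respective days, against 1.11 to 2.92 over all HOXB13 libraries. Endothelial markers (5) summed to 14.2 to 32.6 RPM in vector and 2.85 to 3.66 in HOXB13. Of these Kdr alone reached 1 RPM in 3 or more libraries (log2 fold changes of -2.05 ± 0.09 and -3.30 ± 0.09 between the viruses at the respective days). The 5 adipocyte markers summed to 17.1 to 18.8 (vector) and 57.5 to 65.7 RPM (HOXB13) on day 1, and to 61.8 to 73.3 and 359.6 to 367 on day 21. Their sum rose with Fabp4, while Adipoq, Plin1 and Cfd were at 0.822 RPM or less on average in every group. Pparg went the other way. It was lower in HOXB13 on both days (log2 fold changes of -0.41 ± 0.11 and -2.03 ± 0.11) and fell with time in vector (-0.28 ± 0.11) and HOXB13 (-1.90 ± 0.11). The 6 macrophage markers summed to 3.87 to 5.18 RPM on day 1 and 63.9 to 72.5 on day 21. Of these Cd14 rose from 1.81 to 57.7 RPM on average in vector and from 1.52 to 63.8 in HOXB13 (log2 fold changes of 4.41 and 4.69), and Csf1r rose too (1.80 and 1.94). Cd68 had group means of 1.83 to 2.73 RPM, and Ptprc, Adgre1 and Lyz2 were at 0.130 RPM or less on average in every group. The part of these cell types in the results was not tested. In bulk RNA, fewer cells of a type and less RNA per cell cannot be told apart.

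The metallothionein genes had the widest range of the members, with a highest group mean 129 times the lowest for Mt2 and 49.6 times for Mt1, against 1.24 to 18.5 times for the other members. Mt1 and Mt2 were low at day 1, rose in both cell populations by day 21, and were higher in HOXB13 than in vector cells on both days. Their order was the same, with vector day 1 lowest, then HOXB13 day 1, vector day 21 and HOXB13 day 21, and no library of one group reached into the next.

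Mt1 (ENSMUSG00000031765) stood at 15.6, 15.7 and 16.8 RPM in the vector libraries and at 42.7, 43.8 and 44.4 in the HOXB13 libraries of day 1. At day 21 Mt1 stood at 281, 301 and 305 RPM in vector and at 779, 827 and 787 in HOXB13. All HOXB13 libraries were thus higher than all vector libraries of the same day, and all day 21 libraries higher than all of day 1. The Mt1 mean rose 18.4-fold with time in vector (log2 fold change 4.12 ± 0.04 by limma, adjusted p = 5.3e-29) and 18.3-fold in HOXB13 (4.16 ± 0.04, adjusted p = 2.66e-29). HOXB13 cells had 2.72 times the vector level of Mt1 at day 1 (1.39 ± 0.04, adjusted p = 1.06e-19) and 2.698 times at day 21 (1.43 ± 0.04, adjusted p = 3.59e-20). The ratio between the cell populations was thus nearly the same on both days: the difference of the log2 fold changes of Mt1 was 0.04 ± 0.05 and did not pass the test (adjusted p = 0.501). Of 23 alternatives 2 called that difference, in opposite directions, with -0.24 without the TMM factors (adjusted p = 0.000349) and 0.17 with a pseudocount of 4 (adjusted p = 0.00431, both by limma).

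Mt2 (ENSMUSG00000031762) stood at 7.91, 7.42 and 6.14 RPM in vector and at 14.2, 12.9 and 12.97 in HOXB13 at day 1. By day 21 Mt2 had reached 274, 277 and 279 RPM in vector and 922, 915 and 927 in HOXB13, so that it passed Mt1 in the HOXB13 libraries. The mean rose 38.7-fold in vector (log2 fold change 5.10 ± 0.06 by limma, adjusted p = 1.26e-27) and 69.0-fold in HOXB13 (6.01 ± 0.06, adjusted p = 4.33e-29). HOXB13 cells had 1.87 times the vector level of Mt2 at day 1 (0.82 ± 0.06, adjusted p = 3.99e-12) and 3.33 times at day 21 (1.73 ± 0.06, adjusted p = 1.77e-18). Here the difference of the log2 fold changes passed the test (0.91 ± 0.08, adjusted p = 4.68e-10).

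**Figure D1:**
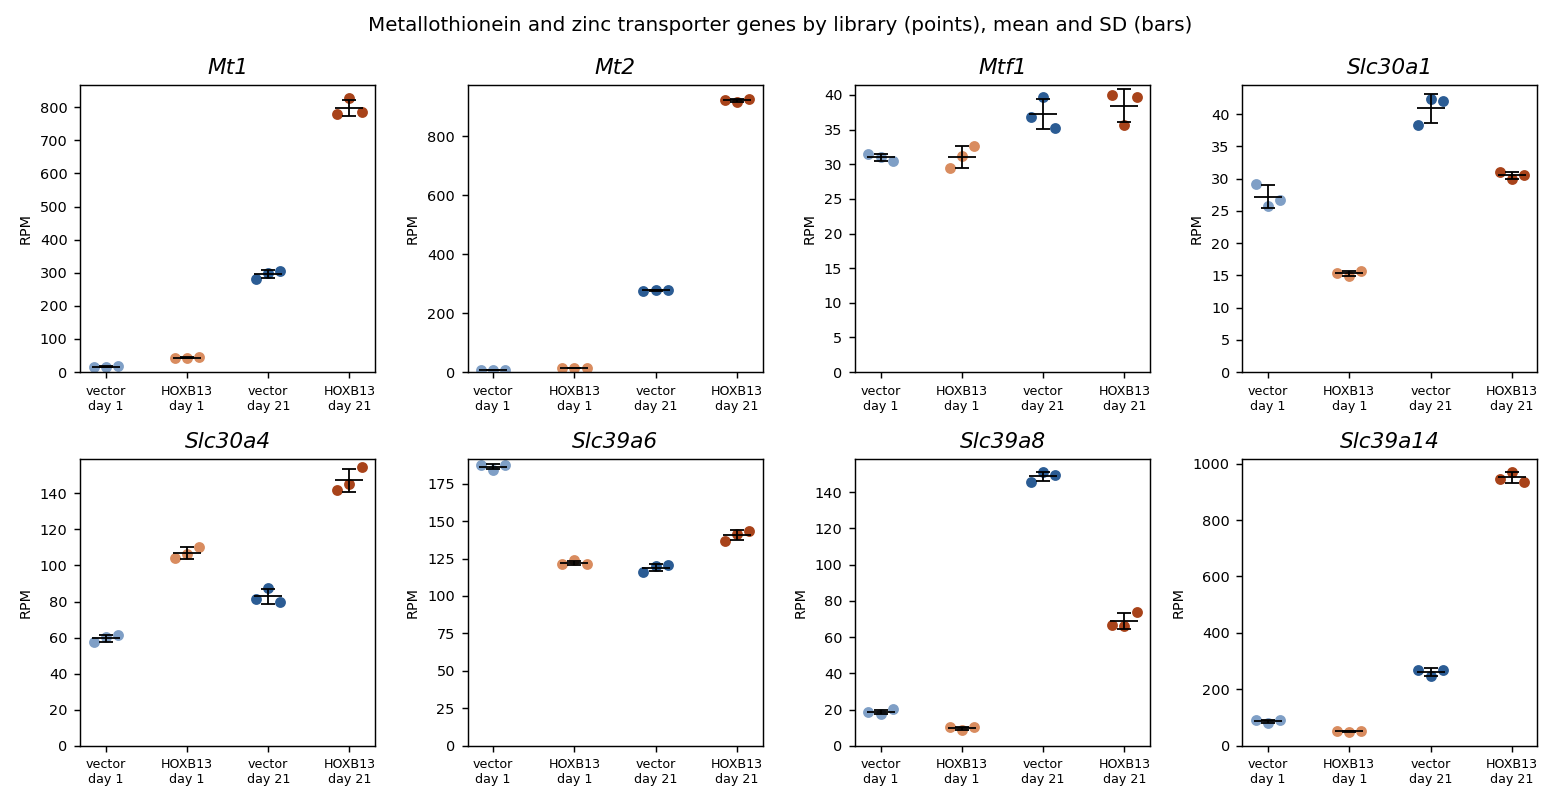
Levels of the 8 genes in RPM (vertical axis, each panel with its own linear scale from 0) in the 4 groups; points are libraries and black bars the mean and SD of 3. Mt1, Mt2 and Slc39a14 have their highest libraries in HOXB13 at day 21, Slc39a8 and Slc30a1 in vector at day 21, and Slc39a6 in vector at day 1.

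The 2 metallothionein genes did not change in proportion. Mt2 divided by Mt1, a ratio within each library that no scaling of libraries can move, was 0.506, 0.472 and 0.364 in vector and 0.332, 0.294 and 0.292 in HOXB13 at day 1. The day 21 ratios were 0.974, 0.922 and 0.917 in vector and 1.18, 1.11 and 1.18 in HOXB13. Every day 21 library lay above every day 1 library, and the HOXB13 libraries were the lowest at day 1 and the highest at day 21. The log2 ratio was higher at day 21 than at day 1 by 1.08 in vector and 1.92 in HOXB13 (average over the viruses, exact permutation test within each virus, two-sided p = 0.005, the smallest that 400 arrangements can give). Between the viruses the log2 ratio differed by -0.54 at day 1 and 0.30 at day 21 (HOXB13 minus vector), each without overlap, with an exact permutation p of 0.1, the smallest possible with 3 against 3. This ratio was chosen after its values were seen. The principal transcripts of Mt1 (549 bases) and Mt2 (511 bases) share no stretch of 50 bases with each other or with another annotated gene, so reads of that length or more should not be split between them.

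**Figure D2:**
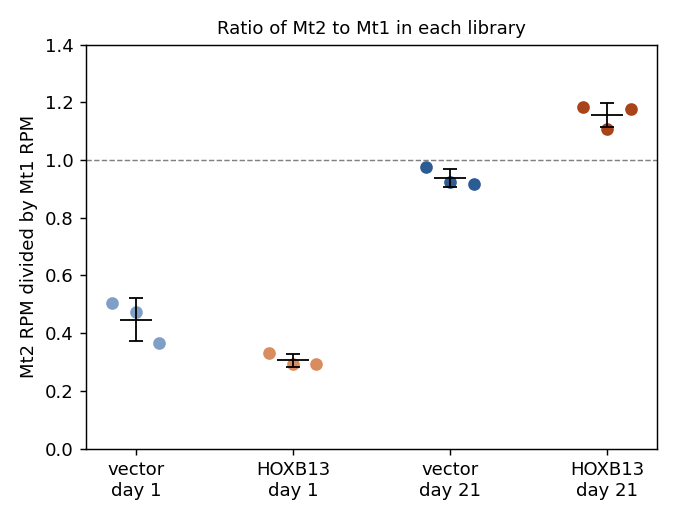
Mt2 level divided by Mt1 level (vertical axis, no unit) in each of the 12 libraries; points are libraries, black bars the mean and SD of 3, and the dashed line marks equal levels. The ratio runs from 0.292 to 0.506 at day 1 and from 0.917 to 1.18 at day 21, and it passes 1 only in the HOXB13 libraries of day 21.

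Per 1000 bases of principal transcript, the metallothionein genes were at 29.3 ± 1.23 (Mt1) and 14.0 ± 1.78 (Mt2) RPM per kb in vector at day 1, and at 1453 ± 46.6 and 1803 ± 12.2 in HOXB13 at day 21. On the same scale the zinc sensor Mtf1 was at 4.06 ± 0.0639 and 5.04 ± 0.315 and the next highest member at the end, Slc39a14, at 193 ± 3.70. In vector at day 1 the highest member per length was Slc39a6, at 48.0 ± 0.457 RPM per kb, above both metallothionein genes. Other transcripts of these genes differ in length, and which were made was not measured. The other metallothionein genes of mouse, Mt3 and Mt4, were at or near 0, with a summed level of at most 0.348 RPM in any library, and were not tested. An antisense gene, Gm45774, overlaps Mt2 and had 0 to 2.16 RPM.

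Mtf1 (ENSMUSG00000028890, chromosome 4, 124802104 to 124849800, plus strand), which encodes the transcription factor that senses zinc, changed little. It stood at 31.4, 31.1 and 30.5 RPM in vector and at 29.4, 31.2 and 32.6 in HOXB13 at day 1. The day 21 levels of Mtf1 were 36.9, 39.7 and 35.3 RPM in vector and 39.98, 35.7 and 39.7 in HOXB13. The viruses overlapped on both days and the days did not. Mtf1 rose 1.202-fold with time in vector (log2 fold change 0.26 ± 0.06 by limma, adjusted p = 0.000329) and 1.24-fold in HOXB13 (0.30 ± 0.06, adjusted p = 6.6e-05). The increase in HOXB13 was no longer called without the TMM factors (0.04, adjusted p = 0.493, range 1.65e-05 to 0.493 over the alternatives). Mtf1 did not pass the test between the viruses, with a log2 fold change of 0.00 ± 0.06 on day 1 (adjusted p = 0.971) and 0.04 ± 0.06 on day 21 (adjusted p = 0.503), and with alternatives from -0.03 to 0.21 and from -0.03 to 0.10. Without the TMM factors it passed at day 1, higher in HOXB13 (0.21, adjusted p = 0.00242 by limma). The gene 1110065P20Rik, on the opposite strand, overlaps Mtf1 and stood at 15.1 to 22.3 RPM.

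The exporter genes moved in opposite directions between the viruses: Slc30a1 was lower and Slc30a4 higher in HOXB13 on both days, while both rose with time. Slc30a1 (ENSMUSG00000037434, chromosome 1, 191906767 to 191913247, plus strand) encodes ZnT1, which moves zinc out of the cell. Slc30a1 stood at 29.2, 25.7 and 26.7 RPM in vector and at 15.4, 14.9 and 15.6 in the HOXB13 libraries of day 1. The day 21 levels of Slc30a1 were 38.3, 42.4 and 42.0 RPM in vector and 31.0, 29.9 and 30.6 in HOXB13. No groups overlapped, and HOXB13 cells at day 21 had come to just above the level that vector cells had at day 1. HOXB13 cells had 0.563 times the vector level at day 1 (log2 fold change -0.79 ± 0.06 by limma, adjusted p = 4.89e-11) and 0.746 times at day 21 (-0.41 ± 0.06, adjusted p = 2.37e-06). With time Slc30a1 rose 1.505-fold in vector (0.57 ± 0.06, adjusted p = 7.67e-09) and 1.99-fold in HOXB13 (0.95 ± 0.06, adjusted p = 8.34e-13). The difference of these changes passed the test (0.38 ± 0.09, adjusted p = 0.000504), but not without the TMM factors (0.11, adjusted p = 0.28, range 0.000196 to 0.28 over the alternatives). Slc30a1 thus stood lower where Mt1 and Mt2 stood higher, when the viruses are compared on the same day.

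Slc30a4 (ENSMUSG00000005802, chromosome 2, 122681233 to 122702663, minus strand) encodes ZnT4, a zinc transporter of intracellular vesicles that is mutated in lethal milk mice. Slc30a4 stood at 57.5, 60.3 and 61.2 RPM in vector and at 104, 107 and 110.3 in the HOXB13 libraries of day 1. The day 21 levels of Slc30a4 were 81.5, 87.5 and 79.8 RPM in vector and 142, 145 and 154 in HOXB13. Even at day 1 the HOXB13 libraries lay above the vector libraries of day 21. HOXB13 cells had 1.79 times the vector level at day 1 (log2 fold change 0.83 ± 0.04 by limma, adjusted p = 9.8e-15) and 1.77 times at day 21 (0.82 ± 0.04, adjusted p = 1.02e-14). With time Slc30a4 rose 1.39-fold in vector (adjusted p = 2.31e-10) and 1.38-fold in HOXB13 (adjusted p = 4.29e-10). The difference of these changes was -0.01 ± 0.06 on the log2 scale (adjusted p = 0.867), with alternatives from -0.30 to 0.03, of which quantile normalization (-0.15) and leaving out the TMM factors (-0.30) passed the test.

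Among the importers, Slc39a14 had the largest log2 fold change between the viruses at day 21 and the largest difference between the changes with time. Slc39a14 (ENSMUSG00000022094, chromosome 14, 70303469 to 70351425, minus strand) encodes ZIP14, an importer of zinc, manganese and iron that is induced by interleukin-6 in liver. At day 1 it was lower in HOXB13, at 52.9, 49.1 and 51.8 RPM, than in vector, at 90.4, 81.6 and 90.5. At day 21 the order was turned: Slc39a14 stood at 945, 971 and 937 RPM in HOXB13 and at 269, 247 and 270.0 in vector. No libraries of any of the groups overlapped. Of the 4877 stretches of 50 bases in its transcript, 20 occur in other genes. HOXB13 cells had 0.586 times the vector level at day 1 (log2 fold change -0.76 ± 0.04 by limma, adjusted p = 3.88e-14) and 3.63 times at day 21 (1.86 ± 0.04, adjusted p = 8.82e-22). With time Slc39a14 rose 2.99-fold in vector (1.57 ± 0.04, adjusted p = 1.2e-20) and 18.5-fold in HOXB13 (4.19 ± 0.04, adjusted p = 9.12e-29). The difference of these changes was 2.62 ± 0.06 on the log2 scale (adjusted p = 3.76e-21).

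Slc39a8 (ENSMUSG00000053897, chromosome 3, 135825279 to 135888572, plus strand) encodes ZIP8, the closest relative of ZIP14. Unlike Slc39a14, it was lower in HOXB13 on both days. Slc39a8 stood at 18.4, 17.7 and 20.1 RPM in vector and at 10.2, 8.69 and 10.3 in the HOXB13 libraries of day 1. The day 21 levels of Slc39a8 were 146, 151 and 149.5 RPM in vector and 66.8, 66.2 and 73.9 in HOXB13. HOXB13 cells had 0.519 times the vector level at day 1 (log2 fold change -0.88 ± 0.06 by limma, adjusted p = 8.55e-12) and 0.464 times at day 21 (-1.10 ± 0.06, adjusted p = 1.16e-13). With time Slc39a8 rose 7.93-fold in vector (2.92 ± 0.06, adjusted p = 3.55e-22) and 7.08-fold in HOXB13 (2.71 ± 0.06, adjusted p = 1.52e-21). The difference of these changes was small (-0.22 ± 0.09, adjusted p = 0.0327). Without any 1 of 8 of the 12 libraries it was no longer called, nor by edgeR or DESeq2 (adjusted p from 3.63e-05 to 0.17 over the alternatives).

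Slc39a6 (ENSMUSG00000024270, chromosome 18, 24579881 to 24603817, minus strand) encodes ZIP6, an importer of the cell membrane, and it was the only member that fell with time in vector cells. Slc39a6 stood at 187, 184 and 187 RPM in vector and at 121, 124 and 121 in the HOXB13 libraries of day 1. The day 21 levels of Slc39a6 were 116, 119.9 and 121 RPM in vector and 137, 142 and 144 in HOXB13. Vector cells at day 1 were thus the highest group and the other groups lay close together, though without overlap. Slc39a6 fell to 0.639 times its level with time in vector (log2 fold change -0.64 ± 0.03 by limma, adjusted p = 1.22e-15) and stood at 1.15 times its day 1 level in HOXB13 (0.20 ± 0.03, adjusted p = 1.48e-06). The latter rise was not found without the TMM factors (-0.06, adjusted p = 0.0648, range 2.62e-08 to 0.0648 over the alternatives). HOXB13 cells had 0.656 times the vector level at day 1 (-0.60 ± 0.03, adjusted p = 9.65e-15) and 1.18 times at day 21 (0.24 ± 0.03, adjusted p = 1.38e-07), and the difference of the changes with time was 0.84 ± 0.04 (adjusted p = 1.92e-14). Elp2, on the opposite strand, overlaps Slc39a6 and stood at 69.5 to 101 RPM. The library kit keeps strand, but the sources used here do not give the strand setting of the counting.

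**Figure D3:**
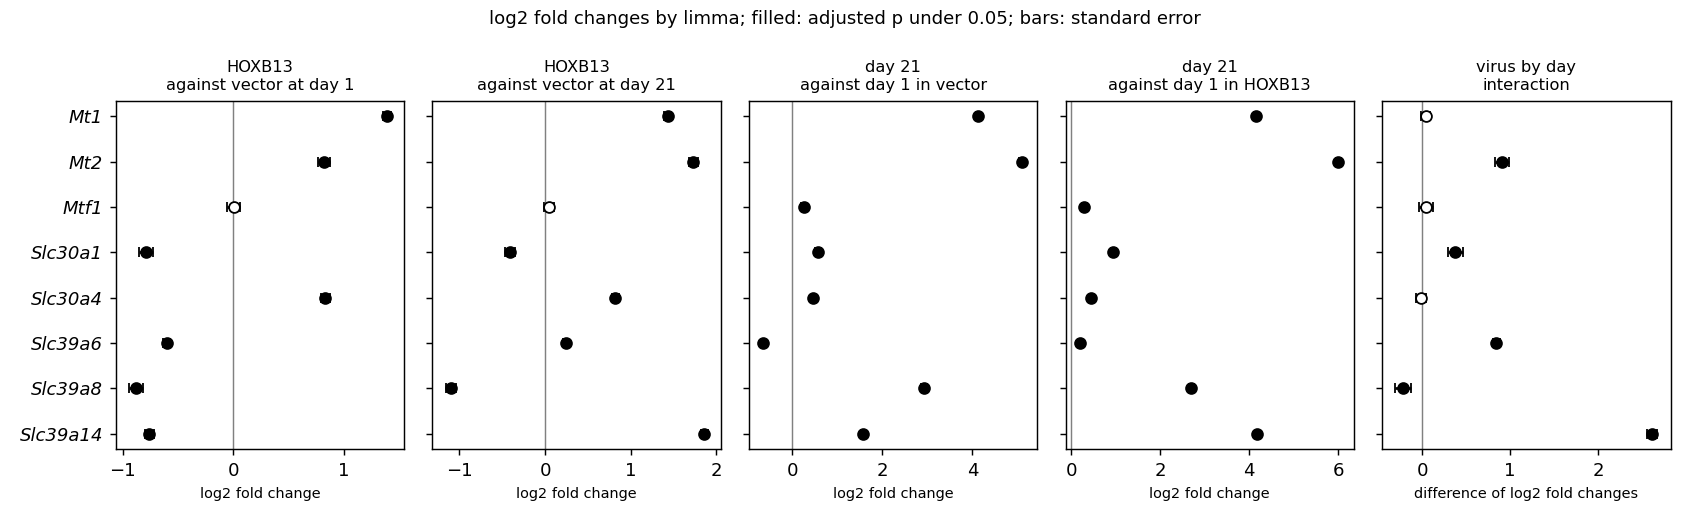
Log2 fold changes of the 8 genes (horizontal axes, each panel with its own scale) in the 4 comparisons, and the difference of the changes with time (virus by day interaction); bars are standard errors, filled points passed limma's test and open points did not. Slc39a6 and Slc39a14 lie left of 0 at day 1 and right of 0 at day 21 when HOXB13 is compared with vector.

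Counted together, the members are to be read against a table in which most genes passed the test. With HOXB13 against vector at day 1, 7 of 8 members passed (3 higher, 4 lower), against 72.5% of all 13516 genes tested (33.9% higher, 38.5% lower). At day 21, 7 of 8 passed (5 higher, 2 lower), against 72.4% of genes (37.3% higher, 35.1% lower). Counting only genes that also changed at least 2-fold, 1 of 8 members passed at day 1 (Mt1, higher), against 13.3% of genes (7.2% higher, 6.06% lower). At day 21, 4 of 8 did (Mt1, Mt2 and Slc39a14 higher, Slc39a8 lower), against 16.6% (8.15% higher, 8.4% lower). With time 8 of 8 members passed in vector (7 higher, 1 lower), against 83.6% of genes (41.7% higher, 41.9% lower). In HOXB13 8 of 8 passed, all higher, against 80.1% of genes (39.5% higher, 40.6% lower). Mt1, Mt2, Slc39a8 and Slc39a14 rose at least 2-fold with time in both cell populations, 4 of 8, where 28.1% of genes changed that much in vector (16.1% higher, 12% lower) and 23.6% in HOXB13 (13.2% higher, 10.5% lower). The difference of the changes with time passed for 5 of 8 members (4 above 0, 1 below), against 68.2% of genes (36.6% above, 31.7% below). It was at least 2-fold for Slc39a14 alone, against 17.4% (7.87% above, 9.53% below). The median log2 fold change of the members with time was 1.07 in vector and 1.83 in HOXB13, where that of all genes was 0.00 and -0.01. Between the viruses it was -0.30 at day 1 and 0.53 at day 21, where that of all genes was -0.03 and 0.01. The split of all calls was sensitive to scaling. Without the TMM factors 34.5% of calls with time in HOXB13 were higher, not 49.3%, and 67.0% of calls between the viruses at day 1, not 46.8%, while the median of all genes moved by -0.23 and 0.18 on the log2 scale. For the difference of the changes with time, 29.2% of calls were above 0, not 53.6%, and the median moved by -0.26.

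The counts for the lists that follow stand against 83.6% of all genes called with time in vector (41.7% higher) and 80.1% in HOXB13 (39.5% higher); that a list differs from them was not tested. Of 9 other zinc exporter-family genes (SLC30 and Tmem163) 4 were measured, and of these 3 rose with time in vector and 3 rose and 1 fell in HOXB13, with a median log2 fold change of 0.40 and 0.36. Slc30a7, which carries zinc into the early secretory pathway, where alkaline phosphatase receives it, rose with a log2 fold change of 1.02 ± 0.04 in vector and 1.11 ± 0.04 in HOXB13, and Slc30a6 of 0.50 ± 0.08 and 0.48 ± 0.08. Between the viruses Slc30a7 was slightly higher in HOXB13 (0.24 ± 0.04 at day 1 and 0.33 ± 0.04 at day 21 on the log2 scale). Of 11 other SLC39 genes 7 were measured, and of these 5 rose and 1 fell with time in vector and 6 rose and 1 fell in HOXB13, with a median of 0.66 and 0.89. Slc39a11 rose with a log2 fold change of 0.95 ± 0.05 in vector and 1.31 ± 0.05 in HOXB13, and Slc39a7, which releases zinc from the endoplasmic reticulum, of 0.66 ± 0.05 and 1.07 ± 0.05. Slc39a1, a widely expressed importer of the cell membrane, rose by 0.79 ± 0.03 and 0.89 ± 0.03.

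**Figure D4:**
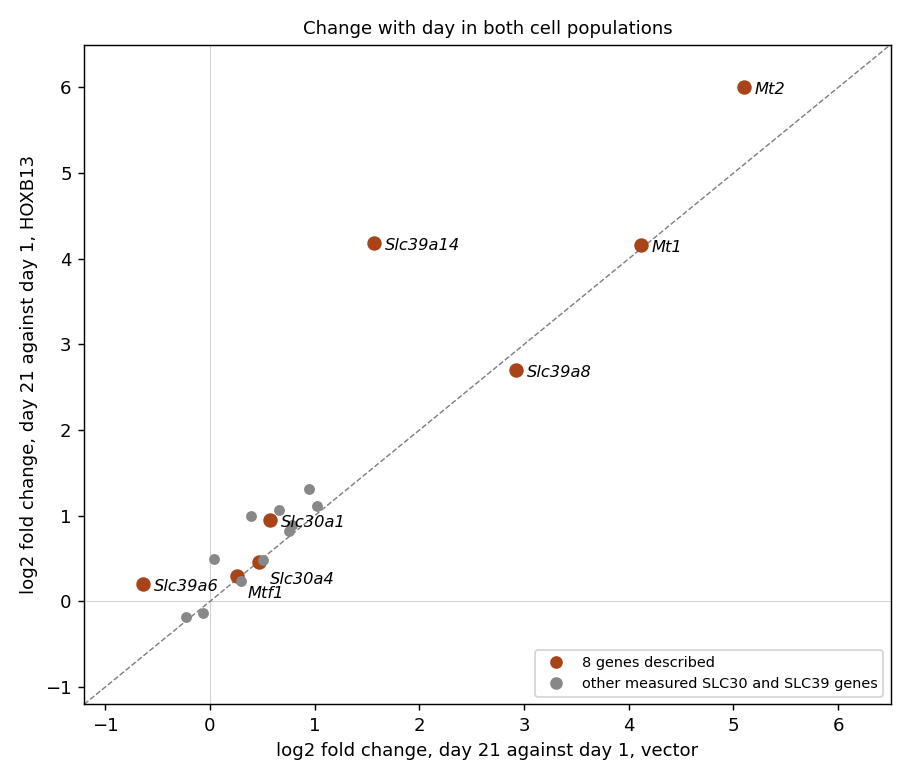
Log2 fold change of day 21 against day 1 in vector (horizontal) and HOXB13 cells (vertical) for the 8 genes and for the 11 other SLC30 and SLC39 genes that passed the filter on low values; on the dashed line both changes are equal. Mt1 and Slc30a4 lie close to the line, Slc39a14 and Mt2 lie above it, and Slc39a6 is the member with a decrease in vector.

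Between the viruses the other SLC39 genes divided. At day 1, 3 of 7 were higher and 3 lower in HOXB13, and at day 21, 4 were higher and 2 lower. Their median log2 fold change was 0.03 and 0.18. Of all genes 33.9% were higher and 38.5% lower at day 1, and 37.3% and 35.1% at day 21. Slc39a10, whose protein pairs with ZIP6 in the cell membrane and whose gene MTF1 represses in mouse cells, was lower in HOXB13 on both days (log2 fold changes of -0.67 ± 0.04 and -0.63 ± 0.04). At day 21 Slc39a13, an importer gene needed for connective tissue and bone in mice, was higher (0.64 ± 0.05), as was Slc39a3 (0.62 ± 0.06).

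Of 5 other genes reported to depend on MTF1 in mouse cells, 0 were higher and 4 lower in HOXB13 at day 1. At day 21, 1 was higher and 4 lower. Of all genes 33.9% were higher and 38.5% lower at day 1, and 37.3% and 35.1% at day 21. The median log2 fold change of the 5 genes was -0.45 and -0.41 on the respective days. Slc39a10, which MTF1 represses, is also on this list and was among the lower genes on both days. With time 3 rose and 2 fell in both cell populations, with a median of 0.71 in vector and 0.41 in HOXB13, where about as many of all genes were higher (41.7% and 39.5%) as lower (41.9% and 40.6%). Ndrg1, a stress-responsive gene, rose with a log2 fold change of 1.33 ± 0.04 in vector and 1.35 ± 0.04 in HOXB13, and Selenow, a selenoprotein gene, by 0.97 ± 0.04 and 1.46 ± 0.04. Csrp1, which encodes an actin-associated LIM protein, fell (-1.57 ± 0.03 and -1.06 ± 0.03). Gclc, of glutathione synthesis, rose by 0.71 ± 0.05 and 0.41 ± 0.05 with time and was lower in HOXB13 on both days (-0.45 ± 0.05 and -0.74 ± 0.05).

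Genes that answer to other known inducers of metallothionein genes were counted in the same way. Of 10 glucocorticoid receptor targets 8 rose and 2 fell in vector and 7 rose and 3 fell in HOXB13, with a median of 2.58 and 1.26. Zbtb16 rose with a log2 fold change of 5.67 ± 0.11 and 4.83 ± 0.11, and Tsc22d3 of 3.77 ± 0.05 and 1.97 ± 0.05. At day 21, 8 of these 10 were lower and 1 higher in HOXB13, against 35.1% of all genes lower and 37.3% higher. Tsc22d3 was at -2.59 ± 0.05 and Fkbp5 at -1.27 ± 0.03. At day 1, 6 of the 10 were lower and 3 higher in HOXB13, against 38.5% of all genes lower and 33.9% higher. Of 8 genes of the STAT3 and interleukin-6 response 7 rose and 1 fell with time in vector and 8 of 8 rose in HOXB13, and 8 of 8 were higher in HOXB13 at day 21, with a median of 1.65, 2.65 and 0.76. Socs3, the feedback inhibitor of that pathway, had a day 21 level of 84.7 ± 1.83 RPM (vector) and 633 ± 15.3 (HOXB13) (log2 fold change 2.89 ± 0.06) and was lower in HOXB13 at day 1 (-0.38 ± 0.06). The list was divided at day 1, with 2 genes higher, 4 lower and 2 not called (median -0.10), and Il6st, the shared receptor subunit, at 0.70 ± 0.03. At day 21 Saa3 and Lcn2, acute-phase genes, were 1.08 ± 0.05 and 1.01 ± 0.06 higher in HOXB13 on the log2 scale. At day 1 Saa3 was lower in HOXB13 (-0.43 ± 0.05). Of 8 NRF2 targets 7 rose and 1 fell with time in vector and 5 rose and 2 fell in HOXB13 (median 1.43 and 0.52), with Hmox1, heme oxygenase, at 2.15 ± 0.03 and 2.62 ± 0.03 and Slc7a11, the cystine importer, at 2.30 ± 0.05 and 3.07 ± 0.05. Gsta4 rose with time in vector (1.80 ± 0.07) and fell in HOXB13 (-1.38 ± 0.07). At day 21, 2 NRF2 targets were higher and 6 lower in HOXB13 (median -0.70), with Gsta4 at -3.20 ± 0.07 and Txnrd1 at 1.03 ± 0.03. The part of these pathways in the levels of the members was not tested.

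Copper and iron, which metallothioneins or ZIP14 also bind or carry, have genes of their own. Between the viruses these were called in both directions, as all genes were (33.9% higher and 38.5% lower at day 1, 37.3% and 35.1% at day 21). Of 11 measured copper genes 3 were higher and 5 lower in HOXB13 at day 1, and 3 higher and 3 lower at day 21 (median -0.12 and 0.02). Of 7 measured iron genes 1 was higher and 3 lower at day 1, and 2 higher and 2 lower at day 21 (median -0.16 and 0.06). With time, 6 copper genes rose and 4 fell in vector, and 6 rose and 1 fell in HOXB13 (median 0.26 and 0.23). Of the iron genes 4 rose and 3 fell in vector, and 4 rose and 2 fell in HOXB13 (median 0.81 and 0.24). Fth1 rose with a log2 fold change of 5.04 ± 0.02 in vector and 4.56 ± 0.02 in HOXB13. Slc31a2 rose by 2.32 ± 0.10 and 1.62 ± 0.10, and Tfrc fell (-1.60 ± 0.05 and -0.91 ± 0.05).

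Among members, log2 levels over the 12 libraries correlated with a Pearson's r of 0.99 for Mt1 and Mt2, 0.94 for Mt2 and Slc39a14, 0.92 for Slc30a1 and Slc39a8 and -0.52 for Mt1 and Slc39a6. These are descriptions, since the 12 points fall into 4 groups and share their scaling. Over 10431 genes with a mean of at least 5 RPM, those most like Mt1 were Serinc3, Gaa and Lamp2 (r from 0.998 to 0.999) and those most like Mt2 were Hmox1, Tgoln1 and Rnase4 (r from 0.998 to 0.999). Those most like Slc39a14 were Rhoj, Serpinb2 and Fndc1 (r from 0.996 to 0.997), those most like Slc39a8 Emp2, Aldh3b1 and Prrc1 (r of 0.998 each), and those most like Slc39a6 Papola, Foxp1 and Aif1l (r from 0.991 to 0.993). Clic4, Ablim1 and Bcl7b were most like Slc30a1 (r from 0.994 to 0.995), Vat1, Pip4k2c and Layn most like Slc30a4 (r from 0.993 to 0.996), and Vcpip1, Ddost and Prxl2c most like Mtf1 (r from 0.947 to 0.958). The correlation follows the order and spacing of the groups and not the size of the change: Serinc3 rose from 144 to 379 RPM on average in vector, where Mt1 rose from 16.1 to 296.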

How the data were processed

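Messenger RNA was sequenced from 12 libraries with a strand-specific NuGEN kit, per the labels' protocols. The deposited signal values are the authors' TMM-normalized gene reads per 1000000 (RPM), per the title of the deposited table. Listed in the submitters' processing notes, with no roles, are HTSeq 0.6.1, STAR 2.7.2a, DESeq2 and edgeR, and the human build GRCh38, although the gene identifiers are of mouse; the sources used here do not give the mouse build. Positions are from GENCODE M21 (GRCm38), matched by identifier. Of the values above 0, 100% were whole multiples of the value of 1 read (0.0582 to 0.0909 RPM) within 0.01, so reads were recovered.

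The 13516 genes that reached 1 RPM in 3 or more libraries (all 8 members among them) were tested on log2(RPM + 1) with limma 3.58.1 (eBayes with trend, R 4.3.3), 1 mean per group over all 12 libraries, two-sided, with Benjamini-Hochberg adjustment over all genes tested and a threshold of 0.05. Fold changes are ratios of mean RPM; log2 fold changes are on the scale with the pseudocount and are somewhat smaller for low genes. Errors of levels are SDs (n = 3) and those of log2 fold changes standard errors. Genes below the filter are left out of the list counts. On simulated data for HOXB13 against vector at day 1, the fit found 48% of 1.2-fold and 96% of 2-fold changes, with 4.97% of calls false. Far fewer genes changed there than were called here, and the library sizes were known. The simulation thus does not test the scaling.

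The members, gene lists and tests were chosen with earlier results of these data known. List genes named are among the up to 4 called members of a list with the largest log2 fold changes in a comparison. Tried as alternatives were a pseudocount of 0.25 or 4, a filter of 5 RPM or none, median-of-ratios and quantile normalization, RPM without the TMM factors, the count tests of edgeR 4.0.16 (quasi-likelihood) and DESeq2 1.42.0 on recovered reads, leaving out genes of X and Y, leaving out each library, fits limited to the compared libraries, and a replicate block.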

Additional observations from a re-analysis of the deposited data

Results flagged for a closer look

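The change with time differed between vector and HOXB13 cells for 5 of the 8 genes, by limma's test of the difference of the log2 fold changes (HOXB13 minus vector). The difference was 2.62 for Slc39a14, 0.91 for Mt2, 0.84 for Slc39a6, 0.38 for Slc30a1 and -0.22 for Slc39a8. It also passed for other transporter genes named above, with 0.60 for Slc39a13, 0.46 for Slc39a3, 0.41 for Slc39a7, 0.36 for Slc39a11 and 0.11 for Slc39a1, though quantile normalization gave -0.10 and leaving out the TMM factors -0.18 for that gene. Of the genes reported to depend on MTF1 it was 0.50 for Csrp1, 0.49 for Selenow and -0.29 for Gclc. Of the glucocorticoid targets it was -0.84 for Zbtb16, -1.79 for Tsc22d3 and -0.92 for Fkbp5. Of the STAT3 and interleukin-6 response it was 3.27 for Socs3, 1.51 for Saa3, 1.09 for Lcn2 and 0.13 for Il6st, the last with alternatives from -0.49 to 0.15. Of the NRF2 targets it was 0.47 for Hmox1, 0.77 for Slc7a11 and -3.18 for Gsta4. As 68.2% of all genes passed this test, passing it sets none of these genes apart.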

How the results depend on the processing

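Of 40 results (8 genes in 5 comparisons) 31 kept their direction and their call under all alternatives, of which there were 24 (23 for the difference of the changes with time, where using only the libraries of a comparison is the same fit). The count of members at least 2-fold changed at day 1 rose from 1 to 3 without the TMM factors. The log2 fold changes of Mt2 and Slc30a4 there were 1.02 and 1.04, and 0.87 and 0.89 relative to the median of all genes. The count for the difference with time rose from 1 to 2 with a pseudocount of 4, under which Mt2 went from 0.91 to 1.08. When single libraries were left out, that count ran from 1 to 2 (2 without replicate 3 of vector at day 1). On the log2 scale the 2-fold limit of these counts is 1. Why the values moved was not tested. Of the values that turned sign, Slc39a6 alone had been called. Between the viruses that of Mtf1 ran from -0.0318 to 0.0401 without single libraries at day 1, with -0.0093 and -0.0003 also below 0, and came to -0.0276 at day 21 without the TMM factors. That of Slc39a6 with time in HOXB13 came to -0.0589 without the TMM factors, where the median of all genes moved by -0.23, and relative to that median it was 0.18. The difference with time for Mt1 came to -0.11 under quantile normalization, -0.24 without the TMM factors, -0.0388 by edgeR and -0.0195 by DESeq2, that for Mtf1 to -0.24 without the TMM factors, and that for Slc30a4, which was not called, ran from -0.0466 to 0.0270 without single libraries, above 0 in 4 cases. The log2 ratio of Mt2 to Mt1 rose by 1.43 to 1.55 when single libraries were left out. The replicate block gave 7, 7, 8, 8 and 5 members called in the 5 comparisons, as without it, and changed no call of a member. Equal replicate numbers did not mark pairs: residual correlations over 9077 genes ran from -0.111 to 0.118, with 1 of 18 above 0.1. Counts of all genes changed at least 2-fold fell from 1792 to 1105 at day 1 and from 2352 to 1561 for the difference with time under a pseudocount of 4. The smallest count behind a member was 82 reads, for Mt2 in a vector library of day 1, and no member was left out for low values.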
